A study of Mus musculus with 10 samples.

Results

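Fibroblast growth factors (FGFs) and the genes that damp their signal were followed in mouse embryonic stem cells (ESCs), embryoid bodies (EBs, aggregates of differentiating ESCs) and whole embryos. The 10 genes were chosen by symbol from a table of 46955 rows: the ligand genes Fgf3, Fgf4, Fgf5, Fgf8, Fgf10 and Fgf15, the Sprouty genes Spry1, Spry2 and Spry4, and the phosphatase gene Dusp6. All 10 were found, and all 10 passed the filter for testing. The 10 RNA-seq libraries came from mice and cells of the C57BL/6 strain: ESCs, wild-type (WT) or Strap-/- (KO), with 1 library each, EBs of the same genotypes with 2 each, and WT embryos of prenatal day 8.0 (E8.0) or 9.0 (E9.0), again with 2 each. Each embryo library was a pool of whole embryos. Strap encodes a WD40-repeat protein, its deletion was made with a zinc finger nuclease, and ESCs were derived from blastocysts and kept on feeder fibroblasts with leukaemia inhibitory factor. EBs were 9 days old. They had been moved out of that factor and, per the labels, kept for 5 days in a neural medium with 10 ng/ml basic FGF (bFGF, the product of Fgf2), in both genotypes. Added FGF ligand and EB material therefore cannot be told apart from embryo or ESC material in any comparison below that crosses them. None of the 10 libraries came from KO embryos. For E8.0 the table's headings name a later stage; the stage on the labels is used here.

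FGFs are secreted proteins that bind FGF receptors together with heparan sulfate and switch on the RAS, RAF, MEK and ERK chain of kinases. ERK then turns on genes whose products restrain it: Sprouty proteins act between the receptor and RAF, and DUSP6 removes phosphate from ERK in the cytoplasm. In the mouse, FGF4 is the main FGF of the inner cell mass and of ESCs, where its ERK signal helps cells leave naive pluripotency, and FGF8, FGF3 and FGF15 act later in the tailbud, the brain and the pharynx.

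Levels are given as FPKM, which corrects fragment numbers for the size of the library and the length of the transcript, so that genes can be compared with each other. Differences are given as log2 units of FPKM + 1, which understates the change of genes under a few FPKM. An FPKM table holds no counts, and the depth behind each value is unknown. With 2 libraries a group, p-values measure only the spread between these libraries, and an exact permutation test of 2 against 2 could not go below p = 0.333. As these are bulk samples, fewer cells of a type and less RNA per cell cannot be told apart. Strap itself had 68.7 FPKM in WT ESCs and 14.5 in KO ESCs, 49.7 and 47.2 in WT EBs, 8.48 and 11.3 in KO EBs, and 82.7 to 98.5 in embryos. Between 12881 and 13886 rows reached 1 FPKM in a library. Replicates lay a median of 0.25 (WT EBs) and 0.27 (KO EBs) log2 units apart, and those of embryos 0.10 (E8.0) and 0.11 (E9.0). Rows of cytosolic and mitochondrial ribosomal RNA held 4.82% to 6.87% of FPKM in ESCs, 4.46% to 8.6% in EBs, 0.0179% and 0.0462% at E8.0, and 4.13% and 1.23% at E9.0.

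Fgf3, Fgf4 and Fgf15 stand in a row on chromosome 7 (GRCm38), all on the plus strand, within 62871 bases from the start of Fgf3 to the end of Fgf15. Fgf3 (ENSMUSG00000031074.14) spans 144838083 to 144844436, Fgf4 (ENSMUSG00000050917.5) begins 2930 bases after it and spans 144847367 to 144865243, and Fgf15 (ENSMUSG00000031073.6) begins 31287 bases further on and spans 144896531 to 144900953. The antisense gene models Gm26793 and Gm39119 overlap Fgf15, and the authors' quantification took read strand into account. The other ligands lie on chromosome 5 (Fgf5, 98254184 to 98277030), chromosome 19 (Fgf8, 45736798 to 45742915) and chromosome 13 (Fgf10, 118669791 to 118792115). Feedback genes lie on chromosome 3 (Spry1, 37639947 to 37644598), 14 (Spry2, 105891947 to 105896819), 18 (Spry4, 38586247 to 38601415) and 10 (Dusp6, 99263231 to 99267489).

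The Fgf4 transcript carries a textbook enhancer near its end, a short element at which the SOX2 and OCT4 proteins bind side by side in pluripotent mouse cells. It is shown because Fgf4 is the gene with the widest range in these libraries. The letters CTTTGTT (an HMG-box site) followed within 5 bases by ATGCTAAT (a POU site) were searched on the transcribed strand of GENCODE transcripts and were found in 3 of 55341 genes (0.00542%). These are the letters of this element, so finding them in Fgf4 was fixed beforehand, and the share describes exact letters only. In Fgf4 they lie on chromosome 7, 144864394 to 144864411, in exon 3 of 3, in the 3′ untranslated region 1456 bases after the coding end, with both sites in capitals:
Fgf4 element: CTTTGTTtggATGCTAAT

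Promoters (RefSeq, GRCm38.p6, 250 bases before to 50 after the start) were given for 7 of the 10 genes. Those of Fgf4 and Fgf5 are printed, since these were the ligand genes higher in EBs than in embryos. A total of 6 motifs were searched on both strands. The GC box GGGCGG occurred in the Fgf4, Fgf5, Fgf10 and Spry1 windows and in 35.7% of all 32851 promoters, and the TATA letters TATAAA occurred in that of Fgf5, after the start, and in 13.6% of all. Only exact letters were counted, so the run tatatata in the Fgf4 window was left out. The letters CCGGAAGT (ETS), ATTTGCAT (octamer), TGACGTCA (CRE) and CACGTG (E-box) occur in 3.89%, 1.74%, 1.79% and 7.15% of all promoters and in 0 of the 7. GC boxes of Fgf4 lie at bases -214 to -209 and -188 to -183 from the start. In Fgf5 the GC box lies at -74 to -69 on the minus strand and the TATA letters at 34 to 39. The Fgf4 window is 69.7% G and C and the Fgf5 window 68.3%, against a median of 52.7% over all promoters. Capitals mark the motifs:
Fgf4 promoter (chr7:144861136-144861435, plus strand): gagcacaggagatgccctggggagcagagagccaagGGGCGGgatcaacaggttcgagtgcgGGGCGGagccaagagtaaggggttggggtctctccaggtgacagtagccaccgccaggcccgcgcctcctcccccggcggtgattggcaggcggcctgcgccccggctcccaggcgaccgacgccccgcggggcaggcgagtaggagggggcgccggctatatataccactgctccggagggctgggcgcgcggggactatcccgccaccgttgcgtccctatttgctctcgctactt
Fgf5 promoter (chr5:98253934-98254233, plus strand): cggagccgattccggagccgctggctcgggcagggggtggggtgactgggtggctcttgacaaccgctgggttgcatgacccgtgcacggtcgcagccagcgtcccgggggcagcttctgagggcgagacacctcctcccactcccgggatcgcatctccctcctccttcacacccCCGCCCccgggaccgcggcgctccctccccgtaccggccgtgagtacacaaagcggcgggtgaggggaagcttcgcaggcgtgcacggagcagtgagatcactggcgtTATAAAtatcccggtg

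Across the materials the ligand that led changed, from Fgf4 in ESCs and EBs to Fgf15 and Fgf8 in embryos. Fgf4 had 107 FPKM in WT ESCs and 113 in KO ESCs. Its level was 18.1 and 44.3 FPKM in WT EBs, against 76.3 and 93.8 FPKM in KO EBs. In embryos it had 1.59 and 1.16 FPKM at E8.0 and 0.365 and 0.340 at E9.0. No group's libraries overlapped those of the next group in this order, and the highest library had 332 times the FPKM of the lowest. Of the summed FPKM of the 6 ligands, Fgf4 made up 95.6% in WT and 97.9% in KO ESCs, 41.5% and 67.3% in WT EBs, 75.9% and 88.9% in KO EBs and at most 2.97% in embryos. Among 22 FGF genes it was the most abundant in all 6 ESC and EB libraries.

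Fgf15, the mouse counterpart of human FGF19 and a gene of the embryonic brain, had 0.0863 and 0.264 FPKM in WT and KO ESCs. It had 14.0 and 5.50 FPKM in WT EBs, 9.95 and 1.10 in KO EBs, 22.2 and 16.0 at E8.0 and 8.87 and 10.3 at E9.0. E8.0 stood above all other groups, and the WT EB, E9.0 and KO EB libraries overlapped. The low second KO EB library also had the lowest level of midbrain and hindbrain markers (En1, En2, Pax2, Pax5, Pax8, Wnt1, Gbx2). They summed to 2.32 FPKM with 0 of 7 at 1 FPKM or more, against 14.8 FPKM and 7 of 7 in the first KO library and 10.7 and 4.94 FPKM in WT EBs. Their part in the Fgf15 level was not tested.

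Fgf8, which organizes the midbrain, the tailbud, the limb and the pharyngeal arches, had 0.626 and 0.292 FPKM in WT and KO ESCs, 5.12 and 6.29 for WT EBs and 3.07 and 2.06 for KO EBs. At E8.0 it had 17.7 and 13.8 FPKM, and at E9.0 11.4 and 8.12. All 6 groups were separate, in the order E8.0, E9.0, WT EBs, KO EBs, WT ESCs and KO ESCs. Fgf15 was the most abundant of the 22 FGF genes in both E8.0 libraries and the second E9.0 library, and Fgf8 in the first E9.0 library. Together with Fgf13, an intracellular member of the family that is not secreted and was second in both E9.0 libraries (10.2 and 9.12 FPKM), they led the embryo profile.

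Fgf3, a gene of hindbrain, ear and tailbud, was low in culture, at 0.936 and 0.682 FPKM in WT and KO ESCs and 0.713 and 0.817 in WT EBs. KO EBs had 4.49 and 1.36 FPKM, and embryos had 7.67 and 6.14 at E8.0 and 3.65 and 1.81 at E9.0. The KO EB and E9.0 libraries overlapped, and E8.0 was above every other library.

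Fgf5, a marker of the epiblast after implantation, was highest in EBs, with 2.44 and 4.11 FPKM in WT and 5.52 and 2.60 in KO. Its level was 0.946 and 0.392 FPKM in WT and KO ESCs and 0.145 to 0.500 in embryos. The EB genotypes overlapped with each other and lay above all other libraries.

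Fgf10, a signal from mesenchyme to epithelium in limb and lung, had the narrowest range of levels among the ligands in EBs and embryos. It had 2.29 and 0.819 FPKM in WT and KO ESCs, 3.16 and 4.82 in WT EBs, 1.22 and 4.57 in KO EBs, 4.04 and 3.46 at E8.0 and 2.58 and 3.17 at E9.0. The EB and embryo groups overlapped in order. ESC libraries held fibroblast markers (Col1a1, Col1a2, Col3a1, Dcn, Lum, Postn, Thy1, Pdgfra) at a sum of 299 FPKM in WT and 298 in KO, against 253 and 69.6 FPKM for WT EBs and 66.8 and 43.8 FPKM for KO EBs. The same genes summed to 120 and 156 FPKM at E8.0 and 631 and 669 at E9.0, in embryos without feeders, so they are not particular to feeder cells. Fgf7, which fibroblasts make, had 5.03 and 7.11 FPKM in WT and KO ESCs and at most 0.374 elsewhere. How much of a ligand's ESC level came from feeders was not tested.

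**Figure D1:**
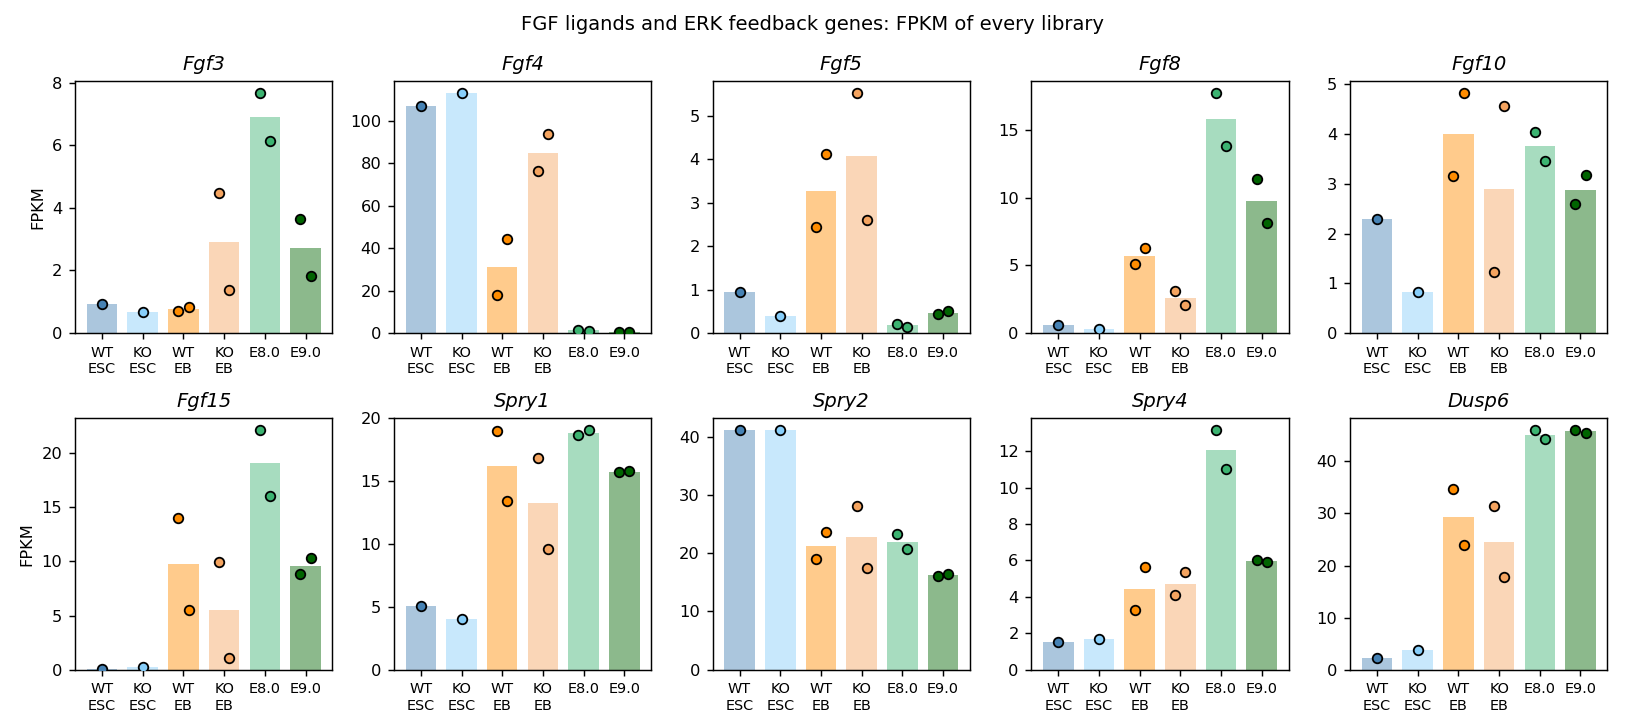
FPKM (linear axes from 0, a scale of its own for each gene) of the 10 genes in the 6 groups, with 1 point per library and bars for the group mean; ESC groups have 1 library. Fgf4 goes from 107 and 113 FPKM in ESCs to under 2 FPKM in embryos, whereas Dusp6 runs the other way, from 2.23 and 3.72 to between 44.2 and 46.1.

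The feedback genes also changed places. Spry2, an inhibitor of receptor signalling to RAS, had 41.1 FPKM in WT and 41.2 in KO ESCs and made up 82.3% and 81.4% of the summed FPKM of the 4 feedback genes there. It had 18.9 and 23.6 FPKM in WT EBs, 28.1 and 17.5 in KO EBs, 23.2 and 20.6 at E8.0 and 16.2 and 16.5 at E9.0. Both ESC libraries were above all others, and E9.0 was below all others.

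Dusp6, the ERK phosphatase, had 2.23 FPKM in WT and 3.72 in KO ESCs, which was 4.47% and 7.36% of the 4 genes' sum. It had 34.8 and 24.0 FPKM in WT EBs and 31.4 and 17.7 FPKM in KO EBs. At E8.0 it had 46.0 and 44.2 FPKM and at E9.0 46.1 and 45.4, and its share of the sum was 45.6% to 54.9% in embryos. The 4 embryo libraries lay above all EB libraries, while the EB genotypes overlapped.

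Spry1, another Sprouty inhibitor, had 5.09 and 4.02 FPKM in WT and KO ESCs, 19.0 and 13.4 in WT EBs, 16.8 and 9.58 in KO EBs, 18.6 and 19.0 at E8.0 and 15.7 in both E9.0 libraries. ESCs lay below all others, and the other 4 groups overlapped in order. Its row is merged with Gm43820, a gene model that starts 8 bases after the end of Spry1 on the same strand, so the value covers both.

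Spry4, a Sprouty of somites and tailbud, had 1.53 and 1.66 FPKM in WT and KO ESCs, 3.30 and 5.61 in WT EBs, 4.10 and 5.34 in KO EBs, 13.2 and 10.99 at E8.0 and 6.03 and 5.89 at E9.0. E8.0 was above all other libraries, and the EB genotypes overlapped.

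**Figure D2:**
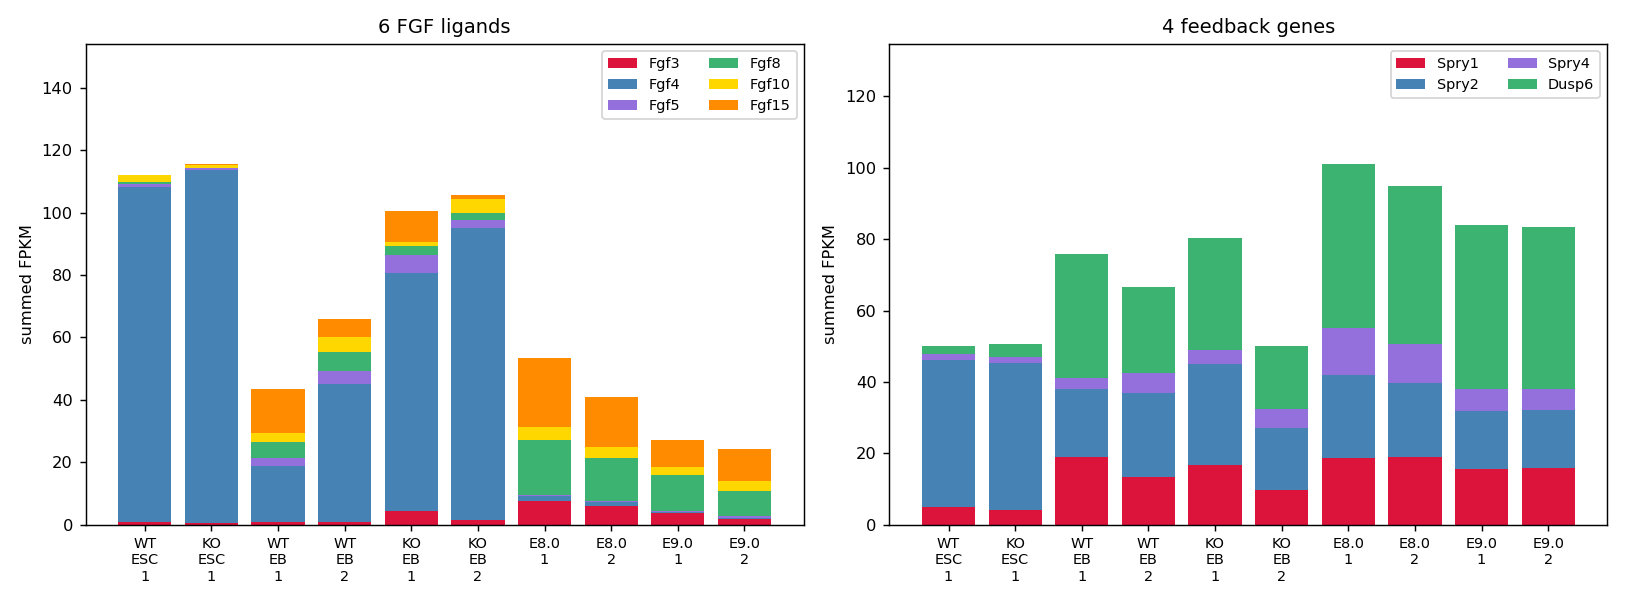
Summed FPKM (linear axes from 0) of the 6 ligands and of the 4 feedback genes in each of the 10 libraries, stacked by gene. Fgf4 fills 95.6% and 97.9% of the ligand bar in ESCs and at most 2.97% in embryos, and the leading feedback gene is Spry2 in ESCs and Dusp6 in embryos.

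In EBs without Strap, 0 of the 10 genes passed the limma test against WT EBs, 1 (Fgf4) had an unadjusted p under 0.05, and 10 did not pass. Over all 15160 rows tested, 0.139% passed and 13.8% had an unadjusted p under 0.05. Fgf4 had the largest difference of the 10, with 18.1 and 44.3 FPKM in WT against 76.3 and 93.8 in KO. Both KO libraries were above both WT libraries, by 0.77 to 2.31 log2 units over the 4 pairs of libraries. The mean difference was 1.54 log2 units (SE 0.407, 95% interval 0.59 to 2.5, limma adjusted p = 0.217), and leaving out the first WT library gave 0.92, the second 2.17. The names of the first WT and KO libraries in the table share a prefix, as do those of the second ones, and what it stands for is not given in the sources used here. Within these pairs KO was higher by 2.02 and 1.07 log2 units, and with the replicate number as a block Fgf4 passed (limma adjusted p = 0.0457), as did 4.04% of all rows. The first WT library held fewer transcripts of pluripotency genes and more of fibroblast genes than the other EB libraries. Summed FPKM of 11 naive and core pluripotency genes was 249 and 585 in WT and 616 and 835 in KO EBs, which is the same order of the 4 libraries as for Fgf4. Of these 11 genes 0 passed between EB genotypes by limma, and 3 had an unadjusted p under 0.05. Pou5f1, which encodes OCT4, had 83.3 and 199 FPKM in WT and 233 and 316 in KO, and Sox2 38.0 and 62.9 in WT and 58.3 and 79.2 in KO, where the genotypes overlapped. The part of undifferentiated cells in the Fgf4 difference was not tested.

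Fgf8 was lower in both KO libraries, 3.07 and 2.06 FPKM against 5.12 and 6.29 in WT (-0.92 log2 units, SE 0.401, 95% interval -1.86 to 0.02, limma adjusted p = 0.371). Fgf3 was higher in both, 4.49 and 1.36 FPKM against 0.713 and 0.817 (1.03, SE 0.607, 95% interval -0.39 to 2.45, limma adjusted p = 0.487), and leaving out the first KO library gave 0.42. These and Fgf4 were the 3 of 10 genes whose genotypes did not overlap, where 46.7% of all rows did not overlap. The other 7 overlapped. Fgf15 had the widest interval, at -1.04 log2 units (95% interval -2.85 to 0.77), and its sign turned to 0.15 without the second KO library. The 4 feedback genes had differences of -0.31 (Spry1, 95% interval -0.95 to 0.33), 0.07 (Spry2, -0.52 to 0.66), 0.09 (Spry4, -0.60 to 0.79) and -0.28 (Dusp6, -0.93 to 0.37) log2 units, and these intervals leave room for differences of up to 0.95 log2 units. The median of the 10 differences was -0.11 log2 units, and that of all rows 0.01.

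In the rest of the pathway, where again 0.139% of all rows passed, a list of this size would hold few calls or none. By limma, 0 of 6 other FGF genes tested (of 16), 0 of 9 receptors and co-receptors (of 10) and 0 of 11 heparan sulfate genes passed. So did 0 of 19 genes from receptor to ERK, 0 of 17 other feedback inhibitors and 0 of 16 ERK-responsive genes (of 19). In that order 2, 1, 2, 1, 6 and 1 had an unadjusted p under 0.05, against 13.8% of all rows. Medians of the 6 lists ran from -0.23 to 0.08 log2 units. The receptor gene Fgfr1 had 55.7 and 45.9 in WT and 52.9 and 45.9 in KO. Of the markers of places where the ligands act, 1 of 6 pharyngeal and second heart field genes was lower (Isl1, from 9.73 and 5.97 FPKM in WT to 0.657 and 0.637 in KO, limma adjusted p = 0.0192). Of these 6 genes, 4 had an unadjusted p under 0.05, and their median was -0.98 log2 units. By the same test 0 of 10 tailbud, 0 of 7 midbrain and hindbrain and 0 of 5 limb bud genes passed, with 2, 0 and 2 at an unadjusted p under 0.05.

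**Figure D3:**
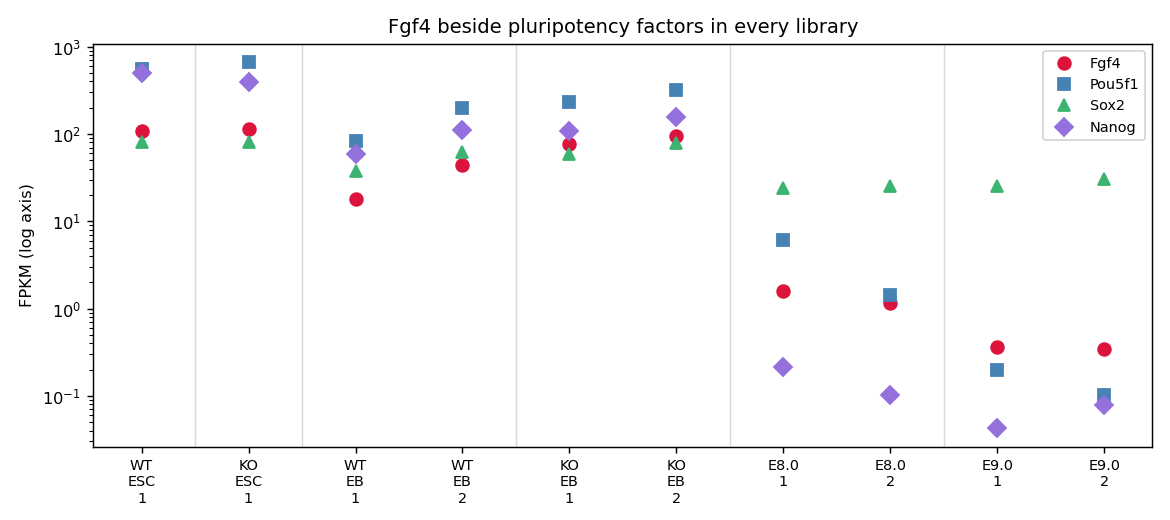
FPKM (log axis) of Fgf4 and of the pluripotency genes Pou5f1, Sox2 and Nanog in each of the 10 libraries. In EBs the lowest library is the first WT one for all 4 genes and the highest is the second KO one; in embryos Sox2 stays at 24.2 to 30.2 FPKM while Fgf4 is under 2.

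ESCs were compared with 1 library per genotype and no replicate check. None of the 10 was at least 1 log2 unit apart, as were 6.7% of 14627 rows with 1 FPKM in either library, and Fgf3, Fgf5, Fgf8 and Fgf15 did not reach that level in either. The differences of Fgf4 and Spry2 were 0.08 and 0.00 log2 units. Fgf10 was furthest down in KO (-0.86, from 2.29 to 0.819 FPKM), and it was past 1 log2 unit with a pseudocount of 0.1 (-1.38). Dusp6 was furthest up (0.55, from 2.23 to 3.72 FPKM).

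From ESCs to EBs the ligands and the feedback genes moved in both genotypes, again with 1 ESC library each and no test. In WT, 6 of the 10 were at least 1 log2 unit higher in EBs, 1 lower and 3 neither (Fgf3 was under 1 FPKM in all these libraries), where 11.5% of 15905 rows were higher and 11.7% lower. Fgf5, Fgf8 and Fgf15 were under 1 FPKM in WT ESCs. They passed the filter only through the EBs, where they are high, so their direction is no independent result. Dusp6 (3.21) and Fgf15 (3.18) stood highest in log2 units, followed by Fgf8 (2.04), Spry1 (1.48), Fgf5 (1.11) and Spry4 (1.08), and Fgf4 was lower (-1.88). Without the second WT EB library 4 were higher and 2 lower. In KO, 7 were higher, 0 lower and 3 neither, where 10.7% of 15525 rows were higher and 9.79% lower. The same limit holds for Fgf3, Fgf5, Fgf8, Fgf10 and Fgf15, which were under 1 FPKM in KO ESCs. The log2 differences were 2.38 for Dusp6, 1.92 for Fgf15, 1.80 for Fgf5, 1.45 for Spry1, 1.45 for Fgf8, 1.10 for Fgf3 and 1.09 for Spry4. Single KO EB libraries moved some of these values: without the first, Fgf15 had 0.73, Fgf3 0.49 and Fgf10 1.61, and without the second 3.11, 1.71 and 0.29. Either way 6 were higher, and with median scaling 5. Spry2 was lower in EBs, at -0.93 log2 units in WT and -0.86 in KO, and lay on either side of 1 log2 unit with the choices made. It had -1.003 in WT with median scaling, -1.08 without the second WT EB library and -1.19 in KO without the first KO EB library. Fgf4 differed by -0.41 log2 units in KO EBs from KO ESCs, and the difference between the genotypes in this step was not tested.

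Between E8.0 and E9.0, 5 of the 10 genes fell, 0 rose and 5 did not pass, where 12% of all 15160 rows fell and 13.7% rose (limma, adjusted p under 0.05). The names of the E8.0 libraries share a prefix, and those of the E9.0 libraries share another. What these prefixes stand for is not given in the sources used here, so stage and library series cannot be told apart. The ligand genes Fgf3, Fgf4 and Fgf8 and the feedback genes Spry2 and Spry4 were the 5. Spry4 fell from 13.2 and 10.99 FPKM to 6.03 and 5.89 (-0.91 log2 units, SE 0.127, adjusted p = 0.00313). Fgf3 fell from 7.67 and 6.14 FPKM to 3.65 and 1.81 (-1.12, SE 0.260, adjusted p = 0.0191), with the E9.0 libraries further apart than the E8.0 ones. Fgf8 fell from 17.7 and 13.8 FPKM to 11.4 and 8.12 (-0.65, SE 0.172, adjusted p = 0.0303). Spry2 fell from 23.2 and 20.6 FPKM to 16.2 and 16.5 (-0.40, SE 0.108, adjusted p = 0.0321). Fgf4 fell at a low level, from 1.59 and 1.16 FPKM to 0.365 and 0.340 (-0.81, SE 0.174, adjusted p = 0.0150).

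Dusp6 had a difference of 0.02 log2 units (95% interval -0.26 to 0.30) over the same day, and its stages overlapped. The stages of the other 9 genes did not overlap, 8 of them lower and 1 (Fgf5) higher at E9.0, where 33% of all rows were lower without overlap and 33.2% higher. Fgf15 (-0.91, SE 0.331, adjusted p = 0.0823), Fgf10 (-0.29, adjusted p = 0.306), Spry1 (-0.24, adjusted p = 0.166) and Fgf5 (0.32, adjusted p = 0.163, under 1 FPKM in all 4 libraries) did not pass. The median of the 10 differences was -0.53 log2 units, and that of all rows was 0. Only Spry4 of the 5 passed whichever embryo library was left out: Fgf8 passed in 2 of the 4 such fits, Fgf3 and Fgf4 in 1 each and Spry2 in 0. With a single variance for EBs and embryos 0 of the 5 passed.

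**Figure D4:**
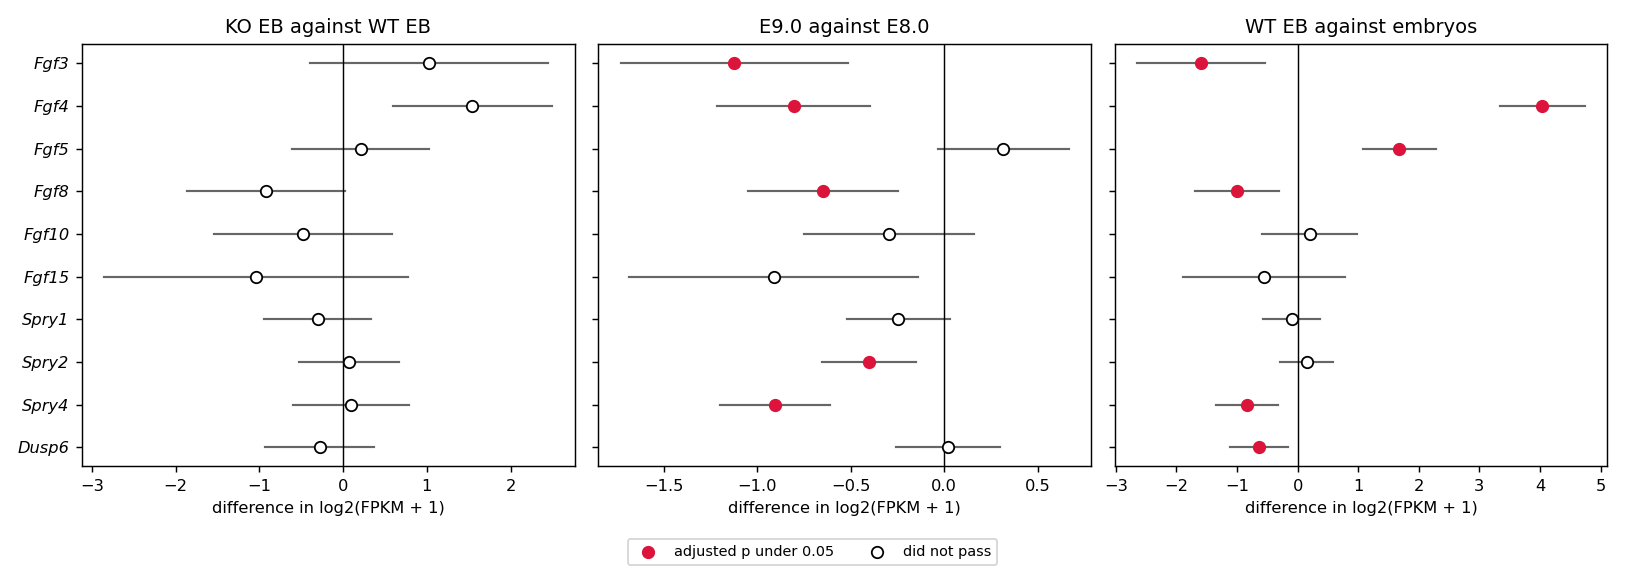
Difference in log2(FPKM + 1) of each of the 10 genes in the 3 replicated comparisons, from limma over 8 libraries; lines are 95% intervals, filled points passed at an adjusted p under 0.05 and open points did not, and each panel has its own x axis. No gene passes between the EB genotypes, 5 pass as lower at E9.0, and 2 higher and 4 lower genes pass between WT EBs and embryos.

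Other genes of the pathway moved in both directions over that day, where 12% of all rows fell and 13.7% rose. Among 6 other FGF genes tested, Fgf17, a close relative of Fgf8, fell from 8.36 and 8.52 to 4.90 and 4.42 FPKM (-0.74 log2 units, limma adjusted p = 0.00397) and 5 did not pass. Of 9 receptor and co-receptor genes, Klb (-1.66), Fgfr4 (-1.08) and Flrt3 (-0.60) fell, Fgfr3 rose (0.90) and 5 did not pass. KLB is the co-receptor for endocrine FGFs such as FGF15. Of 11 heparan sulfate genes, Ndst1 (0.73) and Sulf2 (0.50) rose, Hs2st1 fell (-0.33) and 8 did not pass. From receptor to ERK, 4 of 19 fell, 0 rose and 15 did not pass. Among those that fell were the ERK gene Mapk3 (-0.90, from 82.5 and 71.1 to 37.5 and 43.6 FPKM), the RAF gene Braf (-0.51) and the MEK gene Map2k1 (-0.38).

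Of 17 other feedback inhibitors 3 fell, 3 rose and 11 did not pass, again beside 12% of all rows that fell and 13.7% that rose. Dusp4, a nuclear ERK phosphatase, fell from 42.1 and 37.2 to 20.9 and 19.4 FPKM (-0.94), the ERK phosphatase gene Dusp5 fell by 0.85 and Spred3 by 0.63 log2 units, and Dusp8 rose (0.48). Of 16 ERK-responsive genes tested, 4 fell, 3 rose and 9 did not pass. Those that fell were Egr2 (-2.10, a gene of hindbrain segments), Etv4 (-1.09, from 30.2 and 22.2 to 13.0 and 10.3 FPKM), Fos (-0.90) and Etv5 (-0.74, from 28.7 and 27.0 to 16.4 and 16.2 FPKM). ETV4 and ETV5 are ETS factors induced by FGF.

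Tissue markers moved in both directions over the same day, where 12% of all rows fell and 13.7% rose. Of 10 tailbud and presomitic mesoderm genes 8 fell and 0 rose, with a median of -1.47 log2 units and a summed level of 169 and 137 FPKM at E8.0 against 44.1 and 40.2 at E9.0. Midbrain and hindbrain genes gave 3 of 7 lower and 1 higher, and their summed FPKM was 46.8 and 38.4 against 24.6 and 30.8. Visceral endoderm and yolk sac genes fell for 6 of 6, from a summed 438 and 711 FPKM to 35.9 and 16.3. Limb bud genes rose for 2 of 5 and fell for 0 (Prrx1, 1.32 log2 units, limma adjusted p = 0.000299), with summed FPKM of 28.2 and 32.0 against 62.1 and 55.2. Neural progenitor genes rose for 3 of 7 (Hes5 and Nes among them) and fell for 0, from a summed 87.6 and 91.2 to 160 and 169 FPKM. Embryonic globin and Gata1 levels summed to 876 and 2058 FPKM at E8.0 and 11220 and 7291 at E9.0. Their part in the ligand and feedback differences was not tested.

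Against the embryos, WT EBs had more of 2 of the 10 genes, less of 4, and 4 did not pass, where 23.9% of all rows were higher and 20.3% lower (limma). The E8.0 and E9.0 means were averaged for this comparison. Fgf4 stood 4.04 log2 units higher in EBs (SE 0.301, adjusted p = 0.000293), and its lowest EB library (18.1 FPKM) was above the highest embryo library (1.59). Naive and core pluripotency genes were higher for 10 of 11 and lower for 0, with summed FPKM of 249 and 585 in WT EBs against 18.3 to 28.7 in embryos. All 11 were at 1 FPKM or more in each EB library and 2 to 5 of them in each embryo library, so that several were tested only through the EBs, where they are high. Fgf5 was 1.67 log2 units higher (SE 0.258, adjusted p = 0.00281), but it passed the filter only through EB libraries, and it did not pass the test without the second WT EB library.

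Fgf3 was lower (-1.60, SE 0.448, adjusted p = 0.0249), and both WT EB libraries were under 1 FPKM. Fgf8 (-0.99, SE 0.297, adjusted p = 0.0305), Spry4 (-0.84, SE 0.219, adjusted p = 0.0193) and Dusp6 (-0.64, SE 0.206, adjusted p = 0.0404) were also lower. Fgf10 (0.20), Fgf15 (-0.55), Spry1 (-0.10) and Spry2 (0.15) overlapped with the embryo libraries and did not pass. The 6 genes that passed were those without overlap, where 63.9% of all rows did not overlap. Of the 4 lower genes, Fgf3, Fgf8 and Spry4 passed whichever embryo library was left out but not without either WT EB library, and Dusp6 did not pass in any of these 6 fits. Tailbud genes were lower in EBs for 10 of 10 (summed 9.69 and 4.86 FPKM), and Msgn1 was listed at 0 in all 4 EB libraries. Each EB library had 1 to 3 of the 10 at 1 FPKM or more and each embryo library 9 or 10, so most were tested only through the embryos. Midbrain and hindbrain genes were lower for 6 of 7, where 20.3% of all rows were lower. Only 3 and 2 of these 7 were at 1 FPKM or more in the WT EB libraries, against 7 in each embryo library. Some of them were thus also tested only through the embryos. The part of tailbud, midbrain and hindbrain genes in the lower Fgf3, Fgf8 and Spry4 levels was not tested.

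In the same comparison, 23.9% of all rows were higher and 20.3% lower. Of 6 other FGF genes 4 were lower, with Fgf17 at -2.09, Fgf18 at -1.77 and Fgf13 at -1.60 log2 units, and Fgf11 was higher (1.40). Of the 16 genes on that list, 3 reached 1 FPKM in each WT EB library and 5 or 6 in each embryo library. Some of the lower genes may therefore have been tested only through the embryos. Receptor and co-receptor genes gave 4 of 9 lower and 0 higher, and heparan sulfate genes 3 of 11 lower and 0 higher. From receptor to ERK, 4 of 19 were higher, among them the adaptor gene Gab1 (1.91, 44.8 and 78.1 FPKM in EBs against 13.3 to 16.9), and 3 were lower, among them Map2k2 (-1.01) and Hras (-0.69). Other feedback inhibitors gave 3 of 17 higher (Dusp1, 1.28, and Dusp8, 0.87, among them) and 5 lower (Dusp7, -1.22, and Dusp2, -1.12, among them). ERK-responsive genes gave 4 of 16 higher, with Ier3 at 3.05, Fos at 1.61 and Junb at 1.43, and 6 lower, with Myc at -2.32. Several of these counts lay near the shares of all rows. Early-response genes and feedback genes did not share 1 direction between EBs and embryos.

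Over the 10 libraries, the genes whose log2(FPKM + 1) most resembled each ligand or feedback gene were ranked by Pearson r among 12632 rows with a single name, as a description of 10 libraries that share materials. For Fgf4 they were Tdgf1 (r = 0.998), the Nodal co-receptor of the epiblast, Tex19.1 (0.998) and Jade1 (0.997). Fgf15 came closest to Frem2 (0.988), P3h2 (0.985) and Rragd (0.980), and Fgf8 to March6 (0.992), Eml4 (0.984) and Cgnl1 (0.984). Spry1 came closest to Cdh6 (0.993), Irs2 (0.989) and Maml3 (0.988), and Dusp6 to Wdr86 (0.991), Ssbp3 (0.990) and Tmem246 (0.989). Spry4 was ranked with Ap1b1 (0.981), Arf1 (0.972) and Dusp4 (0.967), the nuclear ERK phosphatase gene. For Spry2 the list was Gc (0.974), Rrbp1 (0.971) and Rnf113a2 (0.969), for Fgf5 Mgat4a (0.976), Msantd2 (0.967) and Mnat1 (0.965), and for Fgf3 Gorasp2 (0.939), Agtr1a (0.938) and Serpinc1 (0.936). Fgf10 did not reach 5 FPKM in any library and was not ranked. Among the 10 genes themselves, r was 0.96 for Spry1 with Dusp6 and for Fgf15 with Spry1, 0.91 for Fgf8 with Spry4, -0.87 for Fgf4 with Fgf8 and -0.84 for Spry2 with Dusp6. Fgf3 and Fgf4, neighbours on chromosome 7, had r = -0.61.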

How the data were processed

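RNA was sequenced after depletion of ribosomal RNA (the labels and the methods name different kits). The authors aligned reads to GRCm38 with STAR 2.5.2b, estimated abundance with Cufflinks 2.2.1 and deposited 1 table of FPKM; rescaling between libraries is not stated. The table held 46955 rows, 15741 at 0 in every library and 1062 with merged names, which cover more than 1 gene, among them Spry1 and 10 of 173 list genes.

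Differences of log2(FPKM + 1) were tested with limma 3.58.1 (R 4.3.3; trend, two-sided, Benjamini-Hochberg over 15160 rows that reached 1 FPKM in 2 or more of the 8 EB and embryo libraries, threshold 0.05). There was 1 mean per group and 1 variance weight each for EBs and embryos (embryo weight 5.47 times that of EBs), 4 residual and 3.36 prior degrees of freedom. The method was tested on simulated data. There it missed most changes of 1 log2 unit between EB genotypes, and the share of false calls was above the threshold in EBs and between stages. Groups with 1 library were compared without a test, at 1 log2 unit. Alternatives were a pseudocount of 0.1, other filters (none, or 5 FPKM), median scaling, quantile normalization, equal variance, a replicate block, only 4 libraries, and leaving out each library. Coordinates came from GENCODE, and promoters from RefSeq.

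Genes, lists, model and tests were chosen with earlier results of these data known. All 10 genes are named, with up to 4 genes of lowest p per pathway list and comparison among those that passed (1 of these is not reported here); Fgfr1, Fgf7, Isl1, Glce and single markers were named after their values were seen.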

Additional observations from a re-analysis of the deposited data

Results flagged for a closer look

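Fgf3 was marked because its KO difference pointed one way in EBs and the other in ESCs. Both KO EB libraries (4.49 and 1.36 FPKM) were above both WT EB libraries (0.713 and 0.817), with a log2 difference of 1.03 that did not pass (limma adjusted p = 0.487), while the KO ESC library (0.682 FPKM) was below the WT ESC library (0.936). The difference between the materials was not tested, and all ESC and WT EB values were under 1 FPKM.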

How the results depend on the processing

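Limits: groups hold 1 or 2 libraries, and FPKM keep no depth. Under the alternatives, of the values for single genes 107 kept direction and side of the threshold, 10 turned and 1 newly passed in KO against WT EBs. The counts were 89, 2 and 4 for E9.0 against E8.0, with 23 that no longer passed, and 102, 7 and 0 for WT EBs against embryos, with 19 that no longer passed. The cause was not tested.

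Rows called between EB genotypes numbered 21, and 36 with a pseudocount of 0.1, 8 with no filter, 581 with equal variance, 613 with the replicate block, 2 with only the 4 libraries and 8 to 18 without 1 library (8 without KO EB 2, 9 without WT EB 1, 10 without KO EB 1). Between stages 3910 were called, 352 with equal variance and 1438 to 2493 without 1 library. Between WT EBs and embryos 6701 were called, and 1388 to 6389 without 1 library (3207 without WT EB 1, 1388 without WT EB 2). Between ESC genotypes 980 rows were past 1 log2 unit, 1836 with a pseudocount of 0.1 and 377 with a filter at 5 FPKM, and between WT EBs and WT ESCs 3690, and 2453 with that filter.

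Same-numbered libraries deviated together in EBs (correlation 0.42) but not in embryos (-0.03), and 2 pairs do not establish a pairing. With the replicate block Fgf4 passed between EB genotypes (1.54, adjusted p = 0.0457) and Fgf15 between stages (adjusted p = 0.0396), while Spry2 no longer passed between stages (adjusted p = 0.107) and Dusp6 no longer between WT EBs and embryos (adjusted p = 0.0621). With only 4 libraries Fgf5 (adjusted p = 0.0449) and Fgf15 (adjusted p = 0.0435) passed between stages, as did Fgf5 with a pseudocount of 0.1 (1.03, adjusted p = 0.0254).

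Between stages, Dusp6 turned to -0.018 with median scaling and ran from -0.0090 to 0.047 without 1 library. Between WT EBs and embryos, Fgf10 turned to -0.034 with quantile normalization, and with the replicate block Fgf10 had -0.24, Fgf15 0.28 and Spry1 0.21. Without 1 library they ran from -0.042 to 0.44, from -1.16 to 0.049 and from -0.34 to 0.13. Between EB genotypes the ranges without 1 library were -0.22 to 0.64 for Fgf5, -1.15 to 0.18 for Fgf10, -2.23 to 0.15 for Fgf15, -0.68 to 0.071 for Spry1, -0.26 to 0.40 for Spry2, -0.22 to 0.40 for Spry4 and -0.67 to 0.11 for Dusp6.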

Other observations

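In 1 merged row, which covers Glce (an epimerase gene of heparan sulfate chains) and the microRNA gene Mir5133, the second KO EB library had 639 FPKM, against 7.67 to 17.0 in the other 9 libraries. Summed FPKM of the 11 heparan sulfate genes, with that row counted as Glce, was 797 in that library and 175 to 289 in the others.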
